A study of Arabidopsis thaliana with 6 samples.

Results

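The *psbB* cluster is a stretch of the chloroplast genome in which *psbB*, *psbT*, *psbH*, *petB* and *petD* follow each other on the plus strand, with *psbN* on the minus strand between *psbT* and *psbH*. The 6 genes were chosen by name from the 77 gene entries of the deposited table, which stand for 73 RNAs once the copies of the inverted repeat are merged. All libraries came from wild-type (WT) *Arabidopsis thaliana* Columbia-0 seedlings, 14 days old, grown in long days (16 h light and 8 h dark) at 21 °C. The 3 pellet libraries hold RNA fragments that precipitated with an antibody against CP31A after formaldehyde cross-linking and RNase I digestion, and the 3 input libraries hold RNA from the same mixes of extract and antibody-coated beads without the washes. Pellet and input carry replicate numbers 1, 2 and 3, which the study calls biological replicates, and were compared as 3 pairs. Values are TPM (reads per window length, brought to a common total in all libraries). Enrichment is the log2 ratio of pellet TPM over input TPM. The question was how much of each RNA of the cluster came down with CP31A, and whether genes of a shared transcript differ.

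CP31A is a nuclear-encoded RNA binding protein of the chloroplast ribonucleoprotein family, whose members bind many chloroplast mRNAs and stabilize them. The plus-strand genes of the cluster are transcribed together as a polycistronic RNA, which is cut between the cistrons and spliced to give a set of overlapping mono- and oligocistronic mRNAs. *psbN* is transcribed from the other strand as an RNA of its own. The cluster mixes functions, since *psbB*, *psbT* and *psbH* encode subunits of photosystem II and *petB* and *petD* encode subunits of the cytochrome *b*6*f* complex, which passes electrons from plastoquinone to plastocyanin.

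By the RefSeq annotation of the TAIR10.1 chloroplast genome (154478 bp), *psbB* lies from 72371 to 73897, *psbT* from 74082 to 74183, *psbN* from 74249 to 74380, *psbH* from 74485 to 74706, *petB* from 74841 to 76292 and *petD* from 76481 to 77672. The reading frames of *psbT* (102 nt) and *psbN* (132 nt) are among the shortest of the 73 RNAs, at places 3 and 9 from the shortest. They are shown because they are the shortest members of the cluster and are neighbours that point toward each other. Each is written 5′ to 3′ on its own strand, with the start and stop codon in capitals:
psbT: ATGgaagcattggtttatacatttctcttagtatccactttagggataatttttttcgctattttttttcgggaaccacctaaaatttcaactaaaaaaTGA
psbN: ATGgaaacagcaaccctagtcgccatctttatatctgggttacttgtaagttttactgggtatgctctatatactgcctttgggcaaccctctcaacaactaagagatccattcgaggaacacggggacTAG

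The *psbT* frame had a GC content of 29.4% and the *psbN* frame one of 44.7%. *petB* and *petD* each hold an intron right behind a very short coding part of the first exon, and the introns of 804 nt and 709 nt were counted with the gene. The coding parts of the first exons, 6 and 8 nt long, are shown in capitals with the start of the intron, since they show how little coding sequence lies before the splice site:
petB exon 1: ATGAGTgtgtgacttgttagaa
petD exon 1: ATGGGAGTgtgtgacttgaactat

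The authors counted reads over each gene with introns and 100 nt on each side, on the coding strand. With these flanks, the windows of *psbB* and *psbT* share 16 nt, those of *psbH* and *petB* share 66 nt and those of *petB* and *petD* share 12 nt, and reads there cannot be assigned to a single gene. The windows of *psbT* and *psbH* do not meet. The window of *psbN* lies opposite 135 nt of the *psbT* window, of which 35 nt are *psbT* reading frame, and opposite 96 nt of the *psbH* window. Because counting used the strand, such reads belong to *psbN* only when they come from the minus strand. Over the windows, GC content ran from 32.5% for *psbT* to 42.0% for *psbB*, against 25.9% to 42.8% over the 73 RNAs (median 33.9%).

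Reads recovered from TPM and the window length totalled 24243 to 73551 per input and 251734 to 392588 per pellet. Input 1 was the shallowest library, with fewer than 20 reads for 24 of the 73 RNAs. All 6 members had more than that in every library. The fewest reads were found for *psbN*, with 21, 54 and 67 across inputs 1, 2 and 3 and 642, 671 and 742 across the pellets, and for *psbT*, with 27, 102 and 126 in the inputs against 549, 832 and 1106 in the pellets. *psbB* had the most, with 718, 1490 and 1908 across the inputs and 12045, 18603 and 25116 across the pellets. Counting error alone put a standard error on the mean log2 enrichment of 0.14 for *psbN*, 0.12 for *psbT*, 0.07 for *psbH* and at most 0.04 for *psbB*, *petB* and *petD*. The table holds only chloroplast genes, so the seedling tissue could not be checked by nuclear marker genes.

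The cluster took a larger share of the pellets than of the inputs, and each of its genes had a higher TPM in every pellet than in any input. Together the 6 RNAs made up 6.58%, 5.11% and 6.08% of the TPM in inputs 1, 2 and 3, against 9.63%, 9.95% and 11.1% in pellets 1, 2 and 3. Absence of overlap between pellets and inputs was common in these data. It was found with the pellets higher for 63.0% of all 73 RNAs, so that 6 of 6 members is to be read against that share. On the TPM scale, the 73 RNAs had a median log2 enrichment of 0.71. *psbA*, *rbcL* and *psbC*, the most abundant RNAs of the input, take a large part of every library, and TPM of the other RNAs shifts with them. Positions relative to 0.71 are therefore given beside each enrichment.

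**Figure D1:**
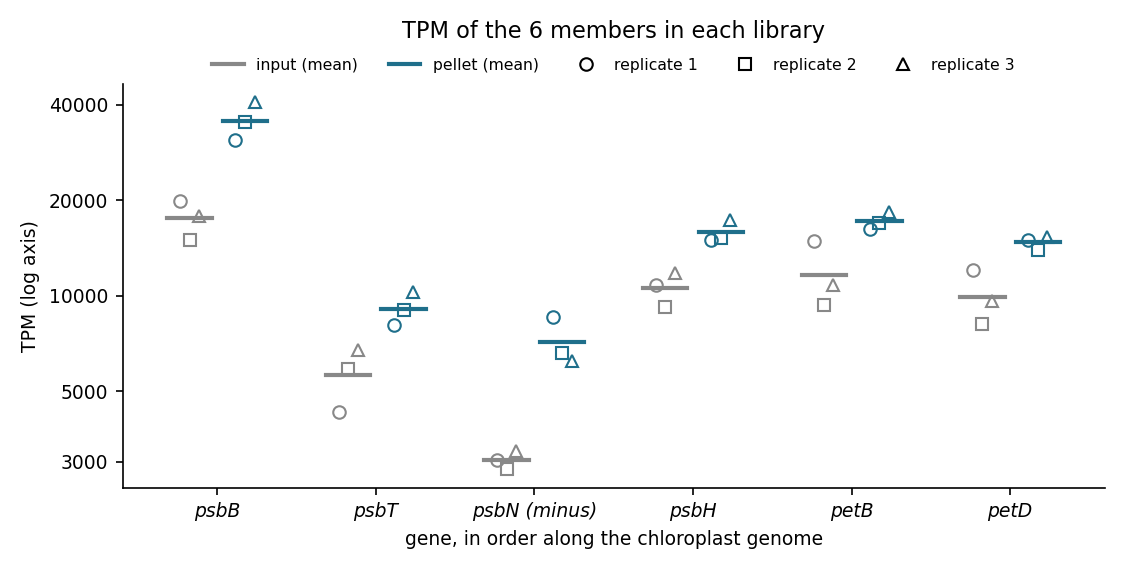
TPM (log axis) of the 6 genes, in order along the chloroplast genome, in 3 input libraries (grey) and 3 pellet libraries (blue); symbols mark replicates and bars the mean of each group. For every gene the 3 pellets lie above the 3 inputs, and by the means of both fractions *psbB* is highest and *psbN* lowest.

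*psbB* encodes CP47, an inner antenna protein of photosystem II, and was the most abundant RNA of the cluster. Its TPM was 19924, 15027 and 17797 in inputs 1, 2 and 3, and the pellets held 30965, 35194 and 40631. The lowest pellet lay well above the highest input, and among the 73 RNAs *psbB* stood at rank 7 by mean TPM in the inputs and at rank 4 in the pellets. The log2 enrichment was 1.02 ± 0.33 (SD, n = 3 pairs; limma adjusted p = 0.00724), or 2.03-fold, which is 0.31 above the median of all RNAs. The pairs gave 0.64, 1.23 and 1.19. *psbB* barely met the definition of a target (log2 enrichment of at least 1 and adjusted p under 0.05), and did not pass without replicate 2 (0.91, adjusted p = 0.0665 from limma) or without replicate 3 (0.93, adjusted p = 0.0996 from limma).

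*psbT* encodes a small subunit of photosystem II at the interface of the dimer. Its TPM was 4284, 5883 and 6721 in the inputs, and the pellets held 8071, 9001 and 10232, with input 1 the lowest library. Input 1, with 27 reads of *psbT*, had a log2 TPM of -0.55 relative to the mean of inputs 2 and 3. The log2 enrichment was 0.71 ± 0.18 (SD, n = 3 pairs; limma adjusted p = 0.0240), or 1.64-fold, at rank 38 of 73. *psbT* passed the test, and its enrichment equalled the median of all RNAs to within 0.0021. It did not pass without replicate 2 (0.76, adjusted p = 0.146 from limma) or without replicate 3 (0.76, adjusted p = 0.187 from limma).

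*psbN*, on the other strand, encodes a small membrane protein that in tobacco is needed to assemble and repair photosystem II and is not a lasting part of it. It was the least abundant RNA of the cluster and, over 3 pairs, the one with the highest mean enrichment. That rank came from pair 1, with 21 reads of *psbN* in the input. *psbB* was level with it in pair 2 and above it in pair 3, and without replicate 1 *psbB* (1.21) stood above *psbN* (1.08). Its TPM was 3031, 2833 and 3251 in the inputs, and the pellets held 8585, 6603 and 6244. The 3 inputs lay close together and pellet 1 was the highest of the pellets, whereas pellet 3 was the highest for each of the other 5 members. The log2 enrichment was 1.22 ± 0.28 (SD, n = 3 pairs; limma adjusted p = 0.00361), or 2.33-fold, at rank 18 of 73 and 0.51 above the median of all RNAs. The pairs gave 1.50, 1.22 and 0.94. *psbN* was a target with all 3 pairs and also without replicate 1 (1.08), without replicate 2 (1.22) and without replicate 3 (1.36).

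*psbH* encodes a small phosphoprotein of photosystem II. Its TPM was 10788, 9204 and 11757 in the inputs, and the pellets held 14981, 15229 and 17293. Inputs and pellets were close to each other here, with pellet 3 highest. The log2 enrichment was 0.59 ± 0.13 (SD, n = 3 pairs), or 1.50-fold, with the smallest spread between pairs of the 6 members. It lay 0.13 below the median of all RNAs and just missed the threshold (adjusted p = 0.0515 from limma). Without the replicate block it passed (adjusted p = 0.0302 from limma), and so it did without replicate 1 (0.64). In these settings 40 and 58 of the 73 RNAs were enriched, against 36 with all pairs and the block.

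*petB* encodes cytochrome *b*6, and *petD* subunit IV of the same complex. The TPM of *petB* was 14824, 9320 and 10765 in the inputs, and the pellets held 16259, 16935 and 18392. Input 1 came close to the lowest pellet, whereas inputs 2 and 3 lay well below it. The pairs gave 0.13, 0.86 and 0.77, with a mean of 0.59 ± 0.40 (SD, n = 3 pairs; limma adjusted p = 0.0693). The TPM of *petD* was 12015, 8133 and 9594 in the inputs against 14981, 13911 and 15260 in the pellets, and its pairs gave 0.32, 0.77 and 0.67, with a mean of 0.59 ± 0.24 (SD, n = 3 pairs; limma adjusted p = 0.0566). Relative to the median of all RNAs, *petB* lay at -0.12 and *petD* at -0.13. Input 1 was the highest input of both. Its log2 TPM of *petB* stood 0.57 above the mean of the other inputs and that of *petD* 0.44 above it. Without the replicate block both passed (adjusted p = 0.0491 and 0.0409 from limma), and without replicate 1 both passed at 0.82 and 0.72. Passing was common there. Of the 73 RNAs, 40 were enriched without the block and 58 without replicate 1, against 36 with all pairs and the block. The calls of *psbH*, *petB* and *petD* thus depended on the block and on replicate 1, whose input was the shallowest library.

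**Figure D2:**
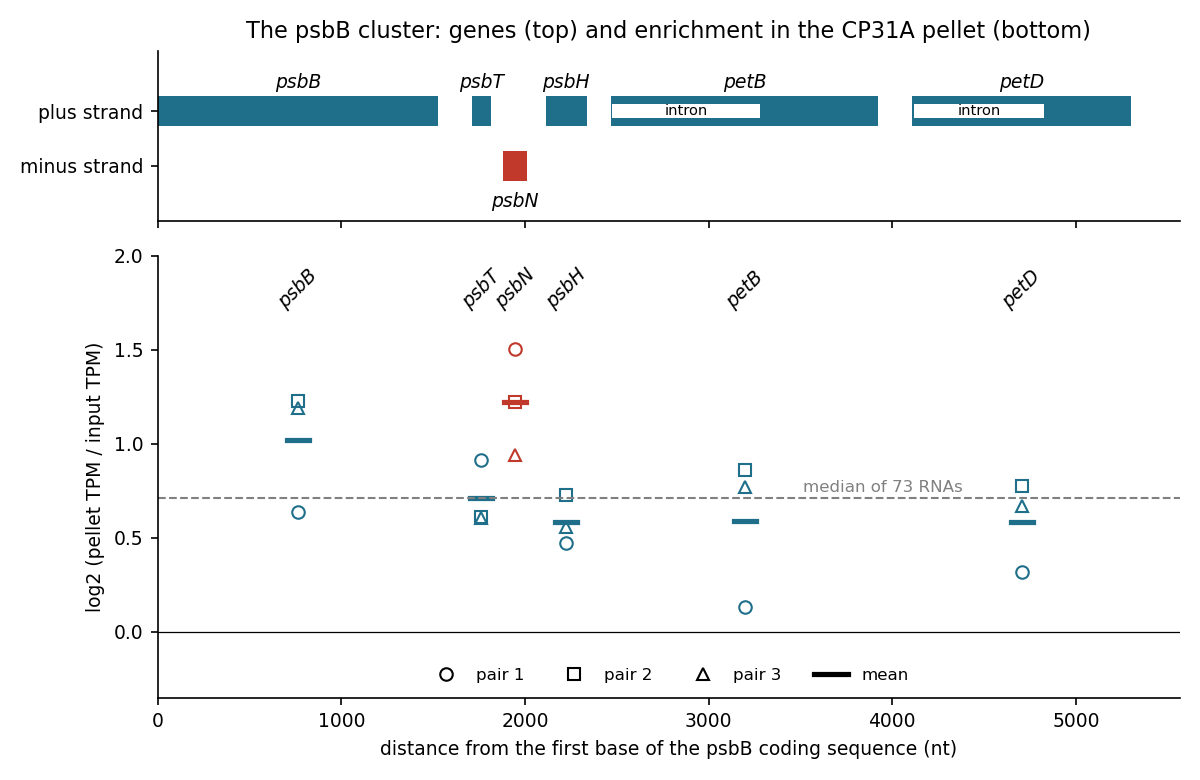
Top, the 6 genes to scale on both strands, with introns in white; bottom, log2 enrichment of each gene in the 3 pairs (symbols) with the mean (bar), plotted at the middle of the gene. *psbN* (1.22) and *psbB* (1.02) lie above the median of 73 RNAs (0.71, dashed), *psbT* lies on it, and *psbH*, *petB* and *petD* share a mean of 0.59.

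In gene order the mean log2 enrichment therefore ran 1.02, 0.71, 1.22, 0.59, 0.59 and 0.59. The means of *psbH*, *petB* and *petD* fell at ranks 42, 40 and 41. Of the 6 members 3 were called enriched (adjusted p under 0.05), against 49.3% of all RNAs, and 2 were targets, against 34.2% of all RNAs. These shares are close to the background. The median over the members was 0.65, against 0.71 over all RNAs, and 2 members lay above the latter. Over 3 pairs an exact sign-flip test cannot give a p below 0.25, which is what each member gave. The interval of 95% from limma ran from 0.70 to 1.75 for *psbN*, from 0.48 to 1.56 for *psbB* and from 0.03 to 1.14 for *petB*.

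**Figure D3:**
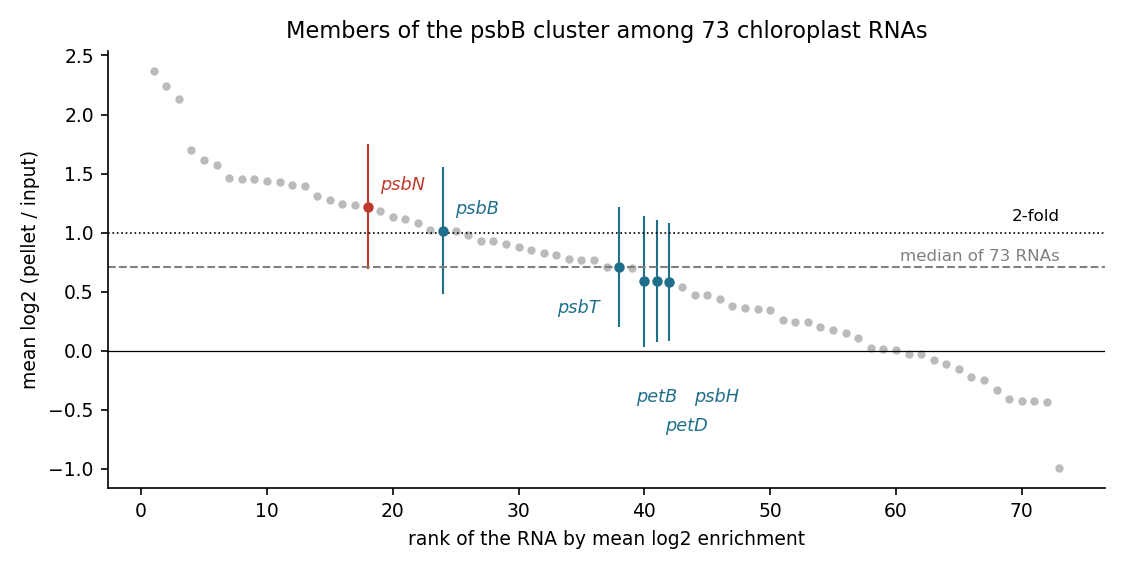
Mean log2 enrichment of 73 chloroplast RNAs in order of rank (grey), with the members of the cluster in colour and their 95% intervals from limma; *psbN* is in red. The members span ranks 18 to 42, and their intervals overlap each other.

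The absolute enrichment depended on how libraries were scaled, but the order within the cluster did not, because a change of scale moves all RNAs of a library alike. With library medians placed at 0, *psbN* was at 0.39 and *psbB* at 0.19, neither passing the test, while *psbT* (-0.12), *psbH* (-0.24), *petB* (-0.24) and *petD* (-0.24) lay below 0 and did not pass. Rescaled without *psbA*, *rbcL* and *psbC*, the members lay between 0.10 (*psbH*) and 0.74 (*psbN*), and none passed in limma (*psbN* and *psbB* had an adjusted p = 0.133 each). At an unadjusted p under 0.05 this left *psbN* (0.0352) and *psbB* (0.0324). With recovered reads brought to a common scale by median ratios between libraries, chosen after the values were seen, *psbN* was at 0.54 and *psbH*, *petB* and *petD* at -0.10 each.

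**Figure D4:**
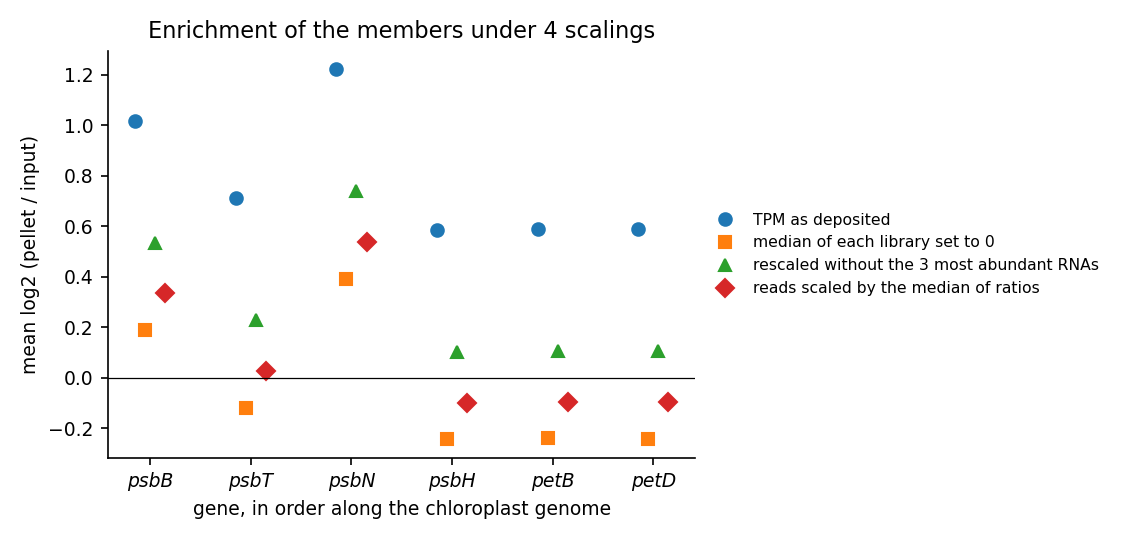
Mean log2 enrichment of the 6 genes under 4 scalings of the libraries. Over 3 pairs, *psbN* is highest and *psbB* second under each, and *psbH*, *petB* and *petD* lie at or near the same value, which is 0.59 on the TPM scale and -0.24 with library medians set to 0.

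Neighbouring genes were compared within each library, where the scaling cancels. The 63 pairs of neighbours of the chloroplast genome at most 1000 nt apart were fitted together, and 8 of them involve a member. The level along the cluster was uneven in the inputs. In whole seedlings, fewer cells with an RNA and less RNA per cell cannot be told apart. The inputs came from mixes with RNase I, and library fragments were selected by size. A difference in RNA amount therefore cannot be told apart from one in the fragments left by digestion. The windows also include flanks and, for *petB* and *petD*, introns. *psbB* had 4.65, 2.55 and 2.65 times the TPM of *psbT* in inputs 1, 2 and 3, a mean of 3.16-fold (adjusted p = 0.00339 from limma). *psbH* had 1.90-fold the TPM of *psbT* (adjusted p = 0.0182 from limma) and 3.47-fold that of *psbN* (adjusted p = 0.00121 from limma), and *psbT* had 1.82-fold that of *psbN* (adjusted p = 0.0207 from limma). *psbN* and *psbT* did not differ beyond the threshold without replicate 2 (log2 difference -0.77) or without replicate 3 (-0.78), and *psbH* and *psbT* did not without replicate 2 (1.07) or without replicate 3 (0.99).

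From *psbH* to *petD* the level in the inputs changed little. *petB* over *psbH* was 1.37, 1.01 and 0.92 in inputs 1, 2 and 3 (mean log2 difference 0.12, interval from -0.46 to 0.69), and *petD* over *petB* was 0.81, 0.87 and 0.89 (mean log2 difference -0.22, interval from -0.73 to 0.29). Neither passed in limma (adjusted p = 0.638 and 0.356). Of the 8 pairs with a member 6 passed in the inputs, against 68.3% of all 63 pairs. By mean TPM the order was *psbB* (17583 ± 2456), *petB* (11636 ± 2853), *psbH* (10583 ± 1289), *petD* (9914 ± 1961), *psbT* (5629 ± 1238) and *psbN* (3038 ± 209) (SD, n = 3 libraries).

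In the pellets the order of the means was the same, with *psbB* at 35597 ± 4846, *petB* at 17195 ± 1090, *psbH* at 15834 ± 1269, *petD* at 14717 ± 712, *psbT* at 9101 ± 1084 and *psbN* at 7144 ± 1261 (SD, n = 3 libraries). *psbB* had 3.84, 3.91 and 3.97 times the TPM of *psbT* (adjusted p = 3.33e-07 from limma), a ratio that varied far less between pellets than between inputs. *psbT* over *psbN* shrank to 1.28-fold and no longer passed (adjusted p = 0.0653 from limma). Without replicate 1 it did pass (log2 difference of *psbN* over *psbT* -0.58). *petD* lay below *petB* in every pellet, at 0.92, 0.82 and 0.83 times its TPM (adjusted p = 0.0119 from limma), a difference of the size seen in the inputs. Its SD was 0.09 between pellets and 0.07 between inputs on the log2 scale, and the standard error that limma moderates over all 63 pairs was 0.06 in the pellets and 0.20 in the inputs. It did not pass without replicate 2 or without replicate 3. Of the 8 pairs with a member 6 passed in the pellets, against 87.3% of all 63 pairs.

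The differences in enrichment between neighbours ask whether adjacent genes came down to different degrees. The 8 pairs join plus-strand neighbours, *psbN* and its neighbours, and the ends of the cluster and the genes outside it. With 3 pairs of libraries, a difference that does not pass does not show that genes came down as a unit. None of the 8 passed in limma after adjustment, against 3.17% of all 63 pairs. An unadjusted p under 0.05 from limma was found for 3 of the 8, against 21 of all 63 pairs. These were *psbB* minus *clpP*, *psbH* minus *psbN* and *rpoA* minus *petD*, all on opposite strands. Over all 63 pairs, such a p from limma was found for 7 of 14 pairs on opposite strands and 14 of 49 on the same strand. After adjustment 1 pair of each kind passed. Two-sided exact sign-flip tests over 3 pairs gave at least 0.25 for each of the 8.

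*psbN* was enriched more than its plus-strand neighbours in every pair of libraries. Against *psbH* the difference in log2 enrichment of *psbH* minus *psbN* was -1.03, -0.49 and -0.39 in pairs 1, 2 and 3, with a mean of -0.64 ± 0.34 (SD, n = 3 pairs; interval from -1.25 to -0.03; unadjusted p = 0.0435, adjusted p = 0.137 from limma). The TPM of *psbN* was 0.28, 0.31 and 0.28 times that of *psbH* in the inputs. It was 0.57, 0.43 and 0.36 times in the pellets, so that the ratios did not overlap between the fractions. Ratios without overlap were found for 3 of the 8 pairs with a member. No share over all pairs of neighbours is given to set this against. Against *psbT* the difference of *psbN* minus *psbT* was 0.59, 0.61 and 0.34, with a mean of 0.51 ± 0.15 (SD, n = 3 pairs; interval from -0.04 to 1.06; adjusted p = 0.155 from limma). Here the ratio of *psbN* over *psbT* was 0.71, 0.48 and 0.48 in the inputs, against 1.06, 0.73 and 0.61 in the pellets, and input 1 overlapped the pellets. Without replicate 1 both differences passed in limma, at -0.44 for *psbH* minus *psbN* and 0.47 for *psbN* minus *psbT*, with a variance that was then shared by all pairs of neighbours.

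Between adjacent plus-strand genes the mean differences were smaller than their SD between pairs. *psbT* minus *psbB* was 0.28, -0.61 and -0.58 in pairs 1, 2 and 3 (mean -0.31 ± 0.51, SD, n = 3 pairs; interval from -0.997 to 0.38), with pair 1 opposite to the others, and without replicate 1 it was -0.60 and passed. *psbH* minus *psbT* was -0.13 ± 0.28 (SD, n = 3 pairs; interval from -0.71 to 0.46). *petB* minus *psbH* was 0.00361 ± 0.30 (SD, n = 3 pairs; interval from -0.59 to 0.60) and *petD* minus *petB* was -0.00180 ± 0.16 (SD, n = 3 pairs; interval from -0.55 to 0.55). These intervals reach differences of about the size found for *psbN*, and do not show that *psbH*, *petB* and *petD* came down alike. At the ends of the plus-strand cluster, *psbB* had 1.66, 1.85 and 1.86 times the TPM of *petD* in the inputs, against 2.07, 2.53 and 2.66 times in the pellets, without overlap. The log2 ratio of *psbB* over *petD* rose in 3 of 3 pairs, by 0.43 ± 0.10 (SD, n = 3 pairs; exact sign-flip p = 0.25, the smallest that 3 pairs allow). This comparison lies outside the 63 pairs of neighbours, and *psbB* had the highest mean enrichment of the plus-strand genes. How often other such gene pairs lack overlap was not computed.

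**Figure D5:**
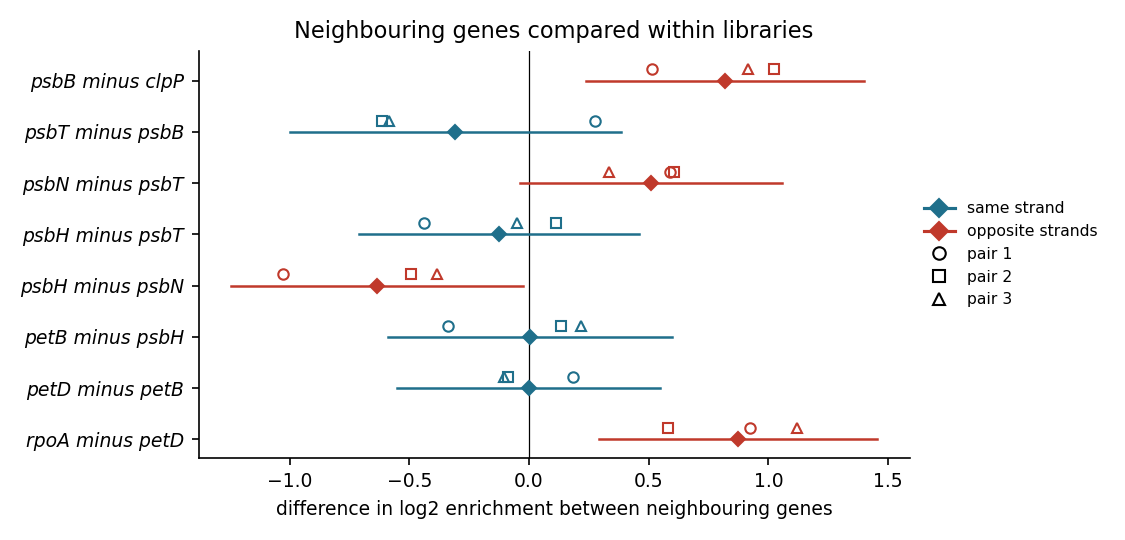
Difference in log2 enrichment between neighbouring genes in each pair of libraries (open symbols), with the mean (diamond) and 95% interval from limma (line); red marks genes on opposite strands and blue genes on the same strand. The means for *petB* minus *psbH* and *petD* minus *petB* lie close to 0, and *psbN* lies above both of its neighbours in 3 of 3 pairs.

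The plus-strand cluster is bounded on both sides by genes on the minus strand. *clpP*, which encodes a subunit of the Clp protease, lies 488 nt before *psbB* and was enriched by only 0.20 ± 0.08 on the log2 scale (SD, n = 3 pairs; limma adjusted p = 0.473). *psbB* minus *clpP* was 0.51, 1.02 and 0.92 in the pairs, with a mean of 0.82 (adjusted p = 0.0844 from limma, and 0.0453 without the replicate block). *rpoA*, for the alpha subunit of the plastid RNA polymerase, ends 228 nt behind *petD* and had 1.46 ± 0.29 (SD, n = 3 pairs), from 10, 29 and 21 reads in the inputs. *rpoA* minus *petD* was 0.92, 0.58 and 1.12, with a mean of 0.87 (adjusted p = 0.0844 from limma). Both differences passed without replicate 1, at 0.97 for *psbB* minus *clpP* and 0.85 for *rpoA* minus *petD*. By its mean, *clpP* thus lay below all plus-strand genes of the cluster and *rpoA* above them.

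Other RNAs of the same complexes are given for comparison. Of 11 further photosystem II mRNAs 9 were measured, of which 2 were enriched, both targets, and 7 did not pass, from -0.43 for *psbA* (the D1 protein) to 1.43 for *psbM* (a small subunit), with a median of 0.18. In the cluster *psbB*, *psbT* and *psbN* passed and *psbH* did not. Of the 4 cytochrome *b*6*f* mRNAs outside the cluster 3 were enriched and *petA* (cytochrome *f*, 0.02) did not pass, with a median of 0.92 and *petN* (a small subunit) highest at 1.40. *petB* and *petD*, at 0.59 each, lay above *petA* and below the 3 enriched ones. Among the 12 genes with an intron, 4 were enriched and the median was 0.56, and among the 18 genes under 300 nt, which include *psbT*, *psbN* and *psbH*, 9 were enriched and the median was 0.65. These counts are to be set against 49.3% enriched and a median of 0.71 over all 73 RNAs.

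By the distance between the enrichments in the 3 pairs, RNAs outside the cluster that lay near *psbN* included *matK* (a maturase for group II introns, distance 0.18 on the log2 scale), which was the nearest, and *psbM* (0.42). *matK* had 1.45, 1.05 and 0.91 in pairs 1, 2 and 3, with pair 1 highest and pair 3 lowest, as for *psbN*. For the mean of the other 5 members, which was 0.50, 0.84 and 0.76, the nearest were *rps3* (0.21), *ycf3* (0.40) and *rps7* (0.42). Pair 1 was the highest pair for *psbN* and *psbT* and the lowest for *psbB*, *psbH*, *petB* and *petD*.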

How the data were processed

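Read processing by the authors, as the methods and the submitters' processing notes give it, used Trim Galore 0.6.4 for trimming, UMI-tools 0.5.4 for removing duplicates, STAR 2.5.3 for alignment against TAIR10, and featureCounts. Poorly covered genes were left out. The authors deposited TPM for 77 gene entries, with log2 values that the authors took from the TPM; log2 of the deposited TPM differed from them by at most 3.55e-15. Deposited columns with the authors' mean enrichment and p-values were not used.

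Copies in the inverted repeat were merged by mean log2 TPM. TPM multiplied by the window length and a factor per library gave whole reads for 456 of 462 values (tolerance 0.0001 reads; the smallest factor at which 90% of values were whole); for *psbC* this needed a window of 1586 nt in place of 1622 nt. Intervals and errors from reads cover counting alone.

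Enrichment was fitted across 73 RNAs with limma 3.58.1 in R 4.3.3 on log2 TPM (two-sided, Benjamini-Hochberg adjustment). No pseudocount was added, and replicate numbers served as a block. The fit was run on simulated reads without pairing of replicates. That check required only that the largest change put in was recovered on average, and not a rate of false calls. Replicate numbers pair the samples because input and pellet came from the same mix; deviations from the group means correlated at 0.17, 0.30 and -0.03 within numbers. Neighbour differences were fitted likewise over 63 pairs, and their levels against 0 within each fraction. Replicates may share growth conditions, and p-values measure only the spread between these samples. Other steps, with the exact sign-flip tests, ran in Python 3.11.15 (numpy 2.4.6, pandas 2.3.3). The t quantiles of the intervals came from scipy 1.17.1, and figures were drawn with matplotlib 3.10.9. Alternatives changed the pseudocount (1 TPM), a filter of 20 reads, the scaling, the block, the test, the merging, the distance between neighbours and the replicates used.

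The genes named are the 6 members, the nearest analysed gene on each side, the 3 RNAs most like *psbN* and most like the other 5 members, and the ends of the lists of photosystem II, cytochrome *b*6*f*, intron-holding and short genes; *psbA*, *rbcL* and *psbC* are named as the most abundant RNAs. Members and lists were chosen with earlier results of these data known. Some items are not reported here. Libraries with non-specific immunoglobulins and tiling arrays were not analysed here.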

Additional observations from a re-analysis of the deposited data

How the results depend on the processing

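A pseudocount of 1 TPM changed no call of a member or a neighbour pair. With library medians at 0, *psbB* (0.19), *psbN* (0.39), *psbT* (-0.12), *psbH* (-0.24), *petB* (-0.24) and *petD* (-0.24) did not pass, and 4 RNAs were enriched, 9 depleted and 3 targets, against 36, 1 and 25 on the TPM scale. Rescaled without the 3 most abundant RNAs, *psbB* (0.53), *psbT* (0.23) and *psbN* (0.74) did not pass, with 5 enriched, 2 depleted and 3 targets. With reads scaled by the median of ratios, chosen after seeing the data, *psbB* (0.33), *psbT* (0.027), *psbN* (0.54), *psbH* (-0.10), *petB* (-0.10) and *petD* (-0.10) did not pass, with 3 enriched, 4 depleted and 2 targets; in each case the cause was not tested. With no replicate block, *psbH* (0.59), *petB* (0.59), *petD* (0.59) and *psbB* minus *clpP* (0.82) passed, and the pairing changed no other call of a member. With repeat copies kept apart, *psbH* (0.59) passed. Under the methods' t-test after Benjamini-Hochberg adjustment *psbH* (0.59) passed and *psbB* (1.02) did not, with 20 RNAs enriched and 12 targets. With at least 20 reads in every library, 19 RNAs were enriched, 0 depleted (limma; fewer RNAs were tested) and 12 were targets, with every member kept and its call the same. *petB* over *psbH* passed in the pellets under this filter (0.12).

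Leaving out each replicate in turn gave log2 enrichments of 0.91 to 1.21 for *psbB*, 0.61 to 0.76 for *psbT*, 1.08 to 1.36 for *psbN*, 0.52 to 0.64 for *psbH*, 0.45 to 0.82 for *petB* and 0.49 to 0.72 for *petD*. It gave 21 to 58 RNAs enriched, 0 to 4 depleted and 21 to 26 targets. Differences in enrichment ran from 0.72 to 0.97 for *psbB* minus *clpP*, -0.60 to -0.15 for *psbT* minus *psbB*, 0.46 to 0.60 for *psbN* minus *psbT*, -0.24 to 0.032 for *psbH* minus *psbT*, -0.76 to -0.44 for *psbH* minus *psbN*, -0.10 to 0.18 for *petB* minus *psbH*, -0.095 to 0.049 for *petD* minus *petB* and 0.75 to 1.02 for *rpoA* minus *petD*. In the inputs, *petB* minus *psbH* ran from -0.055 to 0.24 on the log2 scale. With 2 pairs left, the fit gave all RNAs the same standard error, so such calls follow the size of the mean. Depth limits *psbN* and *psbT* most, since input 1 held 21 and 27 of their reads.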

Other observations

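Over the 63 pairs of neighbours at most 1000 nt apart, the absolute difference in log2 enrichment had a median of 0.57 for the 14 pairs on opposite strands and 0.41 for the 49 pairs on the same strand. These values are given as a description, since pairs share genes. *matK* minus *psbA* (1.56, adjusted p = 0.0325 from limma) and *ndhF* minus *ycf1.1* (3.24, adjusted p = 0.0408 from limma) were the pairs that passed, and 21 pairs had an unadjusted p under 0.05. On the log2 scale of TPM, *psbN* had an SD of 0.10 between inputs and 0.25 between pellets (n = 3 libraries each). Each of the other 5 members had the larger SD between inputs, by unlike amounts. The SD was 0.34 against 0.09 for *petB*, 0.28 against 0.07 for *petD* and 0.33 against 0.17 for *psbT*. It was 0.18 against 0.11 for *psbH*, and nearly equal for *psbB* (0.205 against 0.196).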
